A study of Homo sapiens with 27 samples.

Results

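The integrated stress response and the unfolded protein response were followed through 10 genes: ATF4, DDIT3, TRIB3, DDIT4, ASNS, PSAT1, PHGDH, ERN1, XBP1 and HSPA5. The rule takes them by name and sets no threshold on their values, and every probe whose symbol in the platform's probe table was one of the 10 was taken. The members were nevertheless chosen with earlier results of these data known. Each gene had 1 probe, so the set held 10 of the 30968 probes on the array. The study concerned the activity of glutaminyl cyclase, an enzyme that converts N-terminal glutamine to pyroglutamate, in inflamed macrophages. RNA came from U937, an established human cell line of monocyte-like cells from a histiocytic lymphoma, and was read on 1-colour arrays with the Cy5 dye.

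One group was left untreated. Another received lipopolysaccharide (LPS), a component of the outer membrane of Gram-negative bacteria, at 4 µg/ml. The last received 10 µM PBD150, a glutaminyl cyclase inhibitor, 2 h before the same dose of LPS. All groups were cultured for 48 h, and no group received PBD150 without LPS. Macrophages is the labels' word for the cells, and no agent that would differentiate them is named. Each group had 3 biological replicates, called cultures here, and each culture had 3 technical arrays, 27 arrays in all. The labels do not say whether the cultures were set up separately, so the p-values measure the spread between these 9 samples.

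The integrated stress response starts when kinases phosphorylate the translation factor eIF2, which slows general protein synthesis and favours translation of ATF4. ATF4 and the factors it induces then switch on genes for amino acid synthesis and transport, and genes that restrain growth or survival. The unfolded protein response is the related programme of the endoplasmic reticulum, in which the sensor encoded by ERN1 splices XBP1 mRNA and the chaperone encoded by HSPA5 binds unfolded proteins.

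Values below are normalised log2 intensity, the mean of a culture's 3 technical arrays, and each mean is given with its SD over 3 cultures. Probes differ in brightness for reasons of their own, so a level is set only against the same probe in another group. Array medians ranged from 41.5 to 100.3 intensity units before normalisation, and between 69.0% and 77.8% of an array's probes lay above its noise limit (3 times the root mean square of the values below 0). All members except ERN1 were above that limit on all 27 arrays. All 8 monocytic markers (PTPRC, SPI1, CD33, LYZ, MPO, ITGAM, CSF1R and CD14) were above the limit on all arrays. So were the lymphocyte markers NKG7, CD3D, MS4A1 and CD79A and the fibroblast markers COL1A1 and COL1A2. Being above the limit therefore does not set the monocytic markers apart. Untreated replicate 1 had the dimmest arrays, and LPS replicate 1 stood apart from the other LPS cultures in several members, as given beside each.

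With LPS the stress effectors DDIT4 and DDIT3 and the chaperone HSPA5 rose, while the amino acid enzymes PSAT1, PHGDH and ASNS and the unfolded protein response genes ERN1 and XBP1 fell. DDIT4 rose 8.25-fold and PSAT1 fell 4.35-fold. ATF4 and TRIB3 did not pass the test. The count was therefore 3 members higher, 5 lower and 2 not past the threshold, an adjusted p of 0.05 from limma over all probes. Over all probes 22.5% were called in this comparison, 10.6% higher and 11.8% lower. Of the 15207 named genes 2061 were higher and 2343 lower. Because the members were chosen with earlier results known, their counts beside these shares are a description and not a test. The median difference was -0.90 over the 10 members and 0.08 over all probes. The 3 LPS cultures did not overlap the untreated ones for 9 of the 10 members, against 43.4% of all probes. In cultures of this kind, fewer cells of a type and less RNA per cell cannot be told apart.

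**Figure D1:**
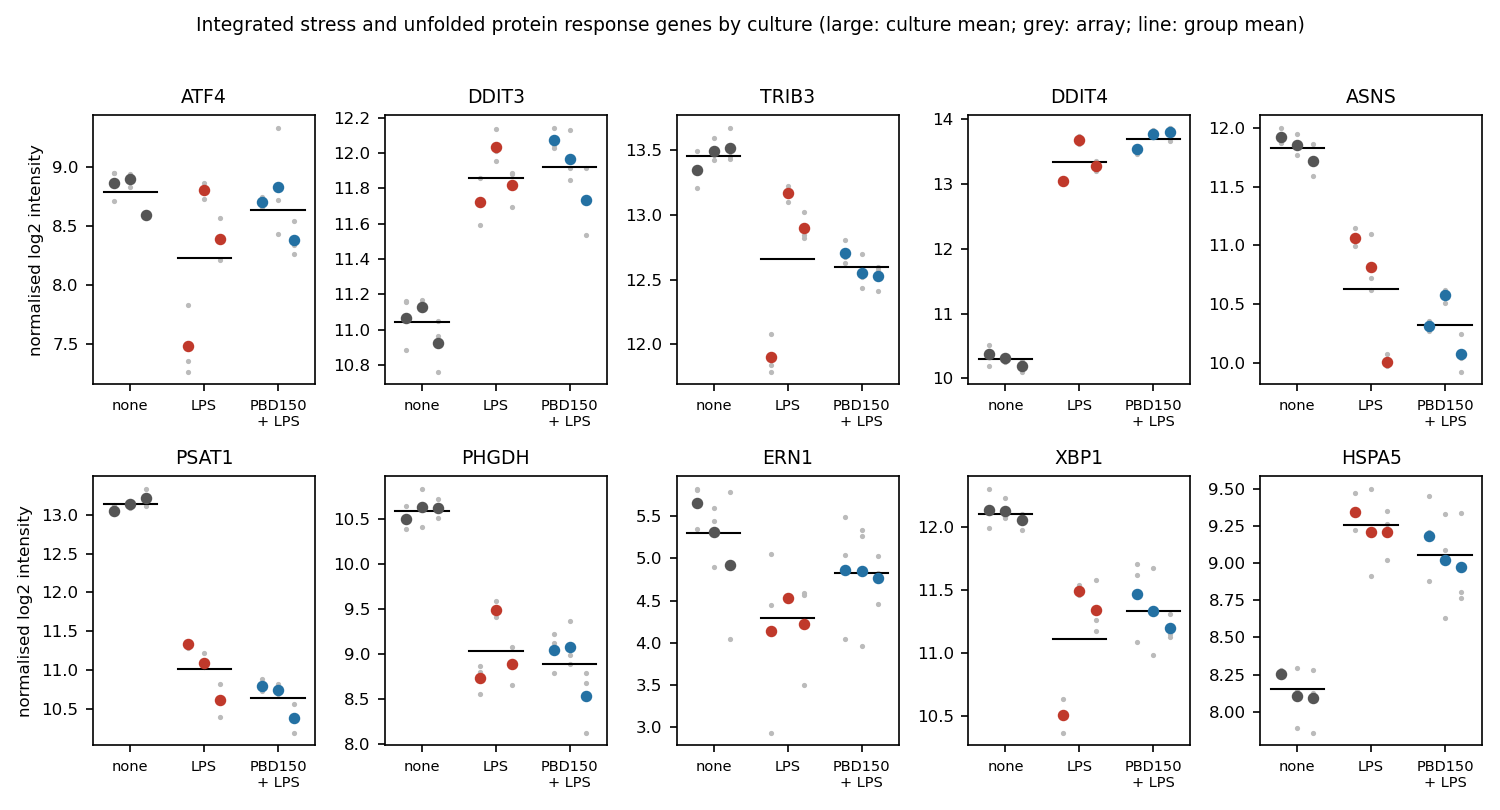
Normalised log2 intensity of the 10 members (vertical axes) in the 3 groups (horizontal axes, none being untreated), with a large point for each culture, a small grey point for each array and a line for the group mean; the axes do not start at 0 and differ between genes. DDIT4, DDIT3 and HSPA5 lay higher in both LPS groups than in untreated cells, PSAT1, PHGDH and ASNS lay lower, and LPS replicate 1 was the lowest point for ATF4, TRIB3 and XBP1.

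ATF4 encodes the transcription factor at the centre of the integrated stress response, and its output is set largely at translation, which an mRNA array does not read. Its level was 8.87, 8.90 and 8.60 in the untreated cultures, 7.49, 8.81 and 8.39 with LPS, and 8.71, 8.83 and 8.38 with PBD150 plus LPS. The groups overlapped, and the low LPS value belonged to replicate 1, whose technical arrays read 7.27, 7.36 and 7.83. The difference between LPS and untreated was -0.56, with a 95% interval from -1.31 to 0.19 (limma, adjusted p = 0.271). Without LPS replicate 1 it was -0.19 (adjusted p = 0.601).

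DDIT3 encodes CHOP, a transcription factor induced by ATF4 that promotes cell death in prolonged stress. It read 11.07, 11.13 and 10.92 untreated, 11.72, 12.03 and 11.82 with LPS, and 12.07, 11.97 and 11.73 with PBD150 plus LPS. Every culture given LPS, with or without PBD150, lay above every untreated one. The LPS difference was 0.82 ± 0.18 (SE), or 1.76-fold (limma, adjusted p = 0.0128). Centring the arrays on their medians in place of quantile normalisation ended this call (0.68, adjusted p = 0.0552), as did leaving out untreated replicate 3 (0.76, adjusted p = 0.0579) or LPS replicate 2 (0.73, adjusted p = 0.0502).

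TRIB3 encodes a pseudokinase that is induced by ATF4 and CHOP and feeds back on them. It read 13.35, 13.49 and 13.52 untreated (13.45 ± 0.09), then 11.90, 13.17 and 12.90 with LPS (12.66 ± 0.67), and 12.70, 12.55 and 12.53 with PBD150 plus LPS (12.59 ± 0.09). All LPS cultures lay below all untreated ones, although replicate 1 was far below the others. The LPS difference of -0.80 did not pass the test (limma, adjusted p = 0.103). Without LPS replicate 1 it was -0.42 (adjusted p = 0.128). It passed at nearly the same size with 16 units added before the log (adjusted p = 0.0447) and with all 27 arrays fitted with a random block per culture (adjusted p = 0.000799). The random-block fit uses 1 correlation between a culture's arrays for all probes, 0.239. The TRIB3 arrays of an LPS culture lay closer, with a technical SD of 0.12 against 0.67 between cultures. That fit thus counts them as more separate than they were, and its p-value is too small for TRIB3.

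DDIT4 encodes REDD1, a stress-induced inhibitor of mTORC1 signalling. It showed the widest difference of the set, from 10.38, 10.31 and 10.19 in untreated cultures to 13.05, 13.68 and 13.28 with LPS. The cultures given PBD150 plus LPS read 13.54, 13.78 and 13.80. In deposited intensity, averaged over a culture's arrays, this was 1024, 1258 and 1167 untreated, 10515, 14774 and 11136 with LPS, and 11528, 12878 and 16187 with PBD150 plus LPS. The untreated cultures were therefore separated from all others by a wide gap. The LPS difference was 3.04 ± 0.21 (SE; limma, adjusted p = 4.54e-05).

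The enzymes of amino acid synthesis moved in the opposite direction. PHGDH catalyses the step that commits glycolytic 3-phosphoglycerate to serine synthesis, and PSAT1 the transamination that follows. PSAT1 read 13.05, 13.14 and 13.21 untreated, 11.33, 11.10 and 10.62 with LPS, and 10.80, 10.74 and 10.39 with PBD150 plus LPS. Its deposited intensity was 6494, 8802 and 9078 untreated against 3189, 2467 and 1695 with LPS. All LPS cultures lay below all untreated ones, and the LPS difference was -2.12 ± 0.23 (SE; limma, adjusted p = 0.000362).

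PHGDH read 10.50, 10.63 and 10.62 untreated, 8.74, 9.49 and 8.89 with LPS, and 9.04, 9.08 and 8.53 with PBD150 plus LPS. Both LPS groups lay wholly below the untreated cultures. The LPS difference was -1.55 ± 0.25 (SE), or 2.93-fold lower (limma, adjusted p = 0.00283). The calls for PSAT1, PHGDH, DDIT4 and HSPA5 in LPS against untreated held under all 17 alternative settings.

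ASNS makes asparagine from aspartate and glutamine and is a classical target of ATF4. It read 11.92, 11.86 and 11.72 untreated, 11.06, 10.81 and 10.01 with LPS, and 10.31, 10.58 and 10.07 with PBD150 plus LPS. The groups given LPS did not overlap the untreated one, and the LPS cultures were spread over about 1 log2 unit. The LPS difference was -1.21 ± 0.29 (SE), or 2.31-fold lower (limma, adjusted p = 0.0173). The call was lost in the values as deposited (-0.86, adjusted p = 0.0731), and without untreated replicate 1 (adjusted p = 0.0599) or replicate 2 (adjusted p = 0.0589). Median centring in place of quantile normalisation kept it (-1.34, adjusted p = 0.0250).

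The ASNS promoter is shown because it holds the element through which ATF4 and its CEBP partners are known to act on this gene. The RefSeq promoter windows of GRCh38.p14, 250 bases before each gene's start, were searched on both strands for that element (CARE, TGATGNAAN) and for the endoplasmic reticulum stress element (ERSE, CCAAT and CCACG separated by any 9 bases). All 10 members had a window, 16 windows in all. The only member with a CARE match was ASNS, 68 to 60 bases upstream of the start of the first of its windows, on the minus strand at chr7:97872448-97872496, shown with the match in capitals.
ASNS: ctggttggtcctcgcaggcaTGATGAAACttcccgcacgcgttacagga
CARE letters occurred in 3.13% of the 35116 windows of this length, so a match is a description of the sequence and not a measured site.

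ERN1 encodes IRE1 alpha, the sensor kinase and endoribonuclease of the unfolded protein response. It was the dimmest member, with 5.66, 5.31 and 4.92 untreated, 4.14, 4.53 and 4.22 with LPS, and 4.86, 4.85 and 4.77 with PBD150 plus LPS. Its deposited intensity was 31.5, 38.8 and 33.1 untreated and 22.5, 26.8 and 21.7 with LPS, near the arrays' noise limits of 12.9 to 18.7. It was above the limit on 9 of 9 untreated, 7 of 9 LPS and 8 of 9 PBD150 plus LPS arrays, and its technical SD was 0.57 to 0.73, against 0.06 to 0.32 in the other members.

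No LPS culture reached an untreated one for ERN1, and the difference was -1.0 ± 0.23 (SE; limma, adjusted p = 0.0137). Adding 16 units before the log, which shrinks differences of dim probes, gave -0.63 (adjusted p = 0.0107). The call was lost in the values as deposited (-0.61, adjusted p = 0.0778) and without untreated replicate 2 (adjusted p = 0.0527). Median centring in place of quantile normalisation kept it (-1.09, adjusted p = 0.0168).

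XBP1 encodes the transcription factor whose mRNA ERN1 splices, and whether its probe reads the spliced form is not given in the sources used here. It read 12.14, 12.13 and 12.06 untreated, 10.50, 11.49 and 11.34 with LPS, and 11.47, 11.33 and 11.19 with PBD150 plus LPS. LPS replicate 1 was again the lowest, and all cultures given LPS lay below the untreated ones. The LPS difference was -1.0 ± 0.27 (SE; limma, adjusted p = 0.0277), and -0.69 without LPS replicate 1 (adjusted p = 0.0232). This was the least stable call of the set, lost in 6 of 17 alternatives, among them the values as deposited (-0.67, adjusted p = 0.0972) and the omission of untreated replicate 1, 2 or 3 (adjusted p = 0.0808, 0.0840 and 0.0723).

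HSPA5 encodes BiP, the main Hsp70 chaperone of the endoplasmic reticulum, which also holds the stress sensors inactive. It read 8.25, 8.11 and 8.09 untreated, 9.34, 9.21 and 9.21 with LPS, and 9.18, 9.02 and 8.97 with PBD150 plus LPS. Its cultures were close together within each group, and every LPS culture lay above every untreated one. The LPS difference was 1.11 ± 0.16 (SE), or 2.15-fold (limma, adjusted p = 0.00172).

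The promoters of XBP1 and HSPA5 are shown together because they were the only members with an ERSE match, the element bound by ATF6 and XBP1 with NF-Y, while their probes differed in opposite directions with LPS. Both sequences lie on the minus strand of GRCh38.p14, with the match in capitals. The HSPA5 stretch is chr9:125241371-125241429, with the match 66 to 48 bases upstream of the start. The XBP1 stretch is chr22:28800583-28800641, with the match 52 to 34 bases upstream of the start of the first of its windows.
HSPA5: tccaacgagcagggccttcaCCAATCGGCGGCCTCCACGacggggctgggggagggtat
XBP1: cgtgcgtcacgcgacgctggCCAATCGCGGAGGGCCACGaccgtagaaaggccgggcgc
ERSE letters occurred in 26 of 35116 windows (0.074%). Another motif, the unfolded protein response element TGACGTGG, was in 0 of the 16 member windows and in 0.612% of all windows.

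PBD150 given before LPS was compared with LPS alone to ask what the inhibitor added. No member passed the test, 0 of 10, and over all probes the share called was 0% (smallest adjusted p 0.414, limma). At an unadjusted p under 0.05 there were 1582 of 30968 probes (5.11%) and 1 member, ERN1. The median difference was 0.00 over the members and 0.03 over all probes. Cultures did not overlap for 2 of 10 members, ERN1 and HSPA5, against 7.98% of all probes.

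The intervals give how large a difference these cultures could still hold. For DDIT4 the difference was 0.37, with a 95% interval from -0.11 to 0.84. For PSAT1 it was -0.37, from -0.89 to 0.15, and for ASNS -0.31, from -0.96 to 0.35. All 3 intervals include 0, and the values moved by more than 1.5 times with 1 LPS culture left out. Without LPS replicate 1 they were 0.22 for DDIT4, -0.21 for PSAT1 and -0.087 for ASNS. Without LPS replicate 3, PSAT1 was -0.57 and ASNS -0.62.

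ERN1 was 0.53 higher with PBD150 than with LPS alone, from 0.02 to 1.05, with every culture higher (limma, adjusted p = 0.906). HSPA5 was -0.20 from LPS alone, from -0.57 to 0.17, with every culture lower. DDIT3 differed by 0.07, from -0.35 to 0.48, and PHGDH by -0.15, from -0.73 to 0.42. The sign of the DDIT3 difference turned with the scaling, to -0.18 in the values as deposited and -0.03 after median centring.

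ATF4 differed by 0.41, from -0.34 to 1.16, XBP1 by 0.22, from -0.38 to 0.83, and TRIB3 by -0.06, from -0.76 to 0.64. None of the 3 passed. Without LPS replicate 1 ATF4 was 0.040, XBP1 was -0.082 and TRIB3 was -0.44, and none passed there.

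**Figure D2:**
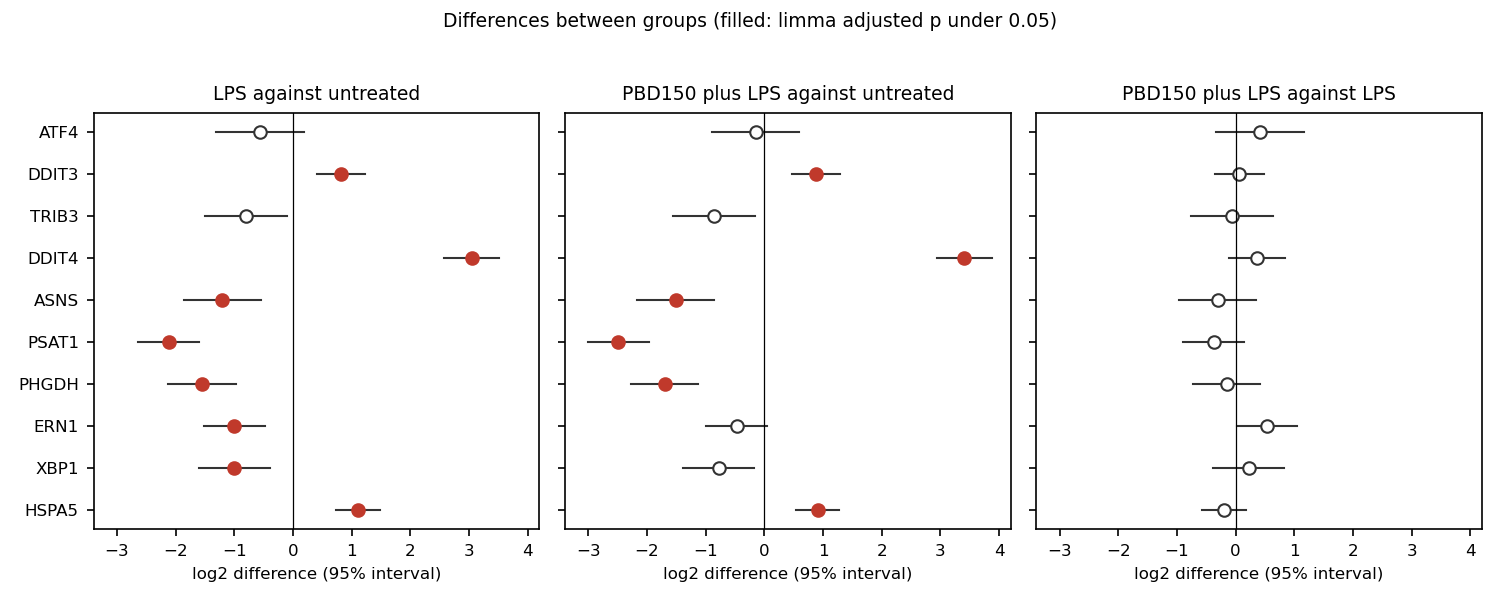
Difference in normalised log2 intensity (horizontal axis) of each member (vertical axis) in the 3 comparisons, with points for the estimate, filled where limma's adjusted p was under 0.05, and lines for the 95% interval. Of the 10 intervals for PBD150 plus LPS against LPS only that of ERN1 (0.02 to 1.05) excludes 0. These intervals reach as low as -0.96 (ASNS) and as high as 1.16 (ATF4). DDIT4 and PSAT1 lie farthest from 0 in both comparisons with untreated cells.

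PBD150 plus LPS was also set against untreated cells. This comparison shares its untreated arrays with the one for LPS, so the values stand side by side and are not independent. The members numbered 3 higher, 3 lower and 4 not past the threshold, where 26% of all probes were called, 12.6% higher and 13.5% lower. Cultures did not overlap for 9 of 10 members, against 45.3% of all probes. DDIT4 rose 10.6-fold (limma, adjusted p = 2.25e-05), HSPA5 1.88-fold (adjusted p = 0.00403) and DDIT3 by 0.88 log2 (adjusted p = 0.00786). PSAT1 fell 5.63-fold (adjusted p = 0.000143), PHGDH 3.25-fold (adjusted p = 0.00152) and ASNS 2.85-fold (adjusted p = 0.00531).

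The sensor arm did not pass here, with ERN1 at -0.47 (adjusted p = 0.165) and XBP1 at -0.78 (adjusted p = 0.0629). TRIB3 was at -0.86 (adjusted p = 0.0735) and ATF4 at -0.15 (adjusted p = 0.781). XBP1 and TRIB3 lay just short of the threshold. Both passed when LPS replicate 1, which is in neither group of this comparison but in the joint normalisation and the shared spread, was left out (adjusted p = 0.00766 and 0.00561). The DDIT3 call was lost with median centring (0.66, adjusted p = 0.0583).

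The cultures of a group did not vary alike. Of the 10 members, 7 had their lowest LPS value in LPS replicate 1 and the other 3, ASNS, PSAT1 and HSPA5, had their highest there. In the PBD150 plus LPS group 9 of 10 members were lowest in replicate 3, and in the untreated group 7 of 10 were lowest in replicate 3. The share of all probes lowest in these cultures is not given here, so the counts cannot be read as particular to the members. The technical arrays of LPS replicate 1 read 11.84, 11.79 and 12.08 for TRIB3, 10.36, 10.51 and 10.63 for XBP1, and 4.44, 2.93 and 5.06 for the dim ERN1. Their medians were 100.3, 73.0 and 68.3 intensity units. Array weights estimated over all probes gave LPS replicate 1 a weight of 0.312 and PBD150 plus LPS replicate 3 a weight of 0.353. Untreated replicate 3 had a weight of 1.76.

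**Figure D3:**
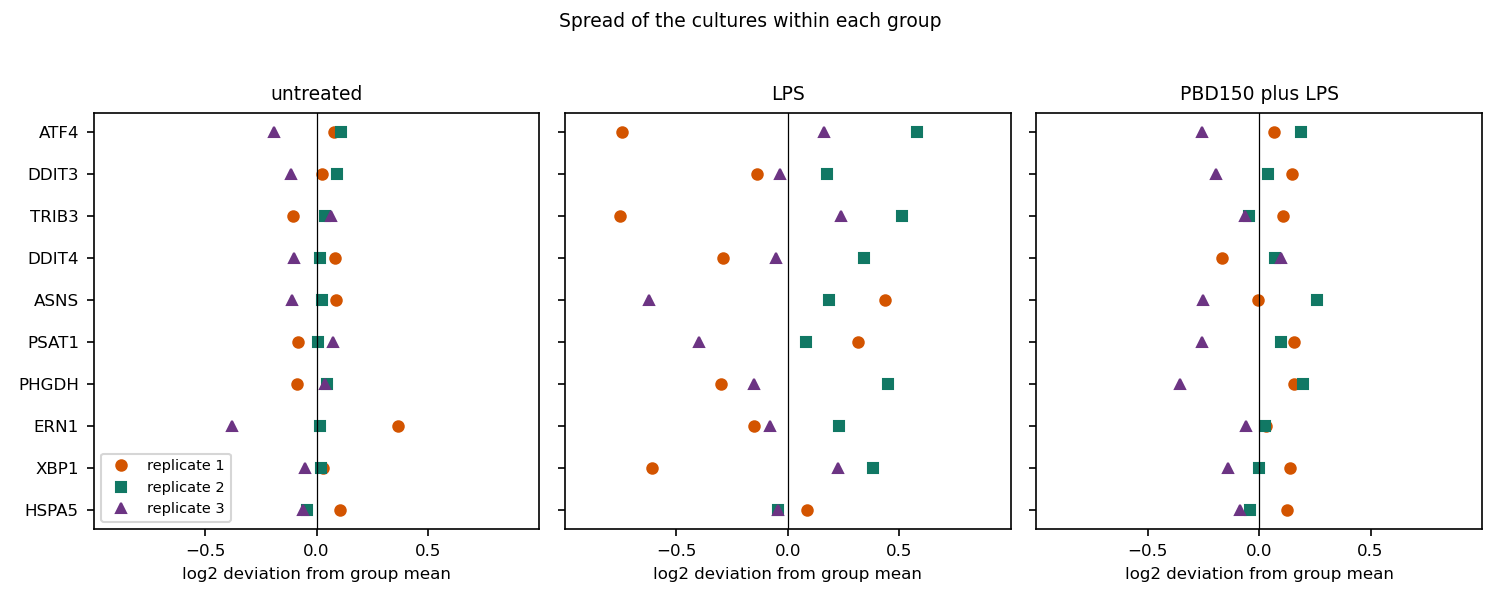
Deviation of each culture from its group mean in normalised log2 intensity (horizontal axis) for the 10 members (vertical axis), with a panel for each group and a symbol for each replicate number. The widest deviations are those of TRIB3 (-0.75) and ATF4 (-0.74) in LPS replicate 1, followed by ASNS in LPS replicate 3 (-0.62) and XBP1 in LPS replicate 1 (-0.61).

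For ATF4, DDIT3, XBP1 and HSPA5, the 3 other named genes with the most similar pattern were found by Pearson's r over the 9 cultures, among 7603 genes. The 9 points share their groups, so a high r can come from the group differences alone. ATF4 was most like MVK (r = 0.979), TNFRSF14 (0.978) and MAPK12 (0.971). DDIT3 was most like FHIP2B, GTPBP2 and LZTR1 (each 0.989). XBP1 was most like PHPT1 (0.995), FARSA (0.994) and TMEM160 (0.994), and HSPA5 most like PRCP (0.996), BRI3 (0.992) and NLRP7 (0.992).

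The wider pathways around the members were described with 10 lists, of which 98 of 108 genes were measured, each by its brightest probe. With LPS 13 list genes rose, 19 fell and 66 did not pass, with a median of -0.06. Of all 15207 named genes 2061 rose and 2343 fell, with a median of 0.05. Of the 32 list genes called, 14 kept the call under every alternative run: EIF2S1, EIF2B3, ATF3, CEBPB, CHAC1, SESN2, MTHFD1, MTHFD1L, ALDH18A1, PDIA3, TXNDC5, HERPUD1, UFD1 and SEC63. The other 18 lost it under at least 1, and 16 of them when 1 culture was left out. An untreated culture was enough for 15 of these 16, and the other, SRPRB, lost it without LPS replicate 2 or 3 (adjusted p = 0.0517 each). LPS replicate 1 was enough for HSP90B1, PDIA4 and ALDH1L1 (adjusted p = 0.0770, 0.0568 and 0.0666). With PBD150 plus LPS against LPS 0 of 98 passed, with a median of -0.11.

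Among the integrated stress response factors and targets, 4 of 11 rose and 1 fell. ATF3, a stress-induced repressor, rose by 1.49 log2 (limma, adjusted p = 0.000951), and CEBPB, a dimer partner of ATF4 and CHOP, by 1.51 (adjusted p = 0.00124). CHAC1, which degrades glutathione, rose by 1.19 and SESN2, a leucine sensor that restrains mTORC1, by 1.01. VEGFA, a secreted growth factor for blood vessels, fell by 1.13 and was named after its value was seen. ATF4 itself did not pass the test, while these 4 genes rose and the amino acid enzymes among the members fell.

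Of 8 serine, glycine and one-carbon enzymes 4 fell and 1 rose. MTHFD1L, the mitochondrial formate-producing enzyme, fell by 2.36 log2 (limma, adjusted p = 0.000896), MTHFD1 by 2.15 and SHMT2 by 0.82, all beside PHGDH and PSAT1. A further SHMT2 probe fell more, at -2.12 (adjusted p = 0.0102), and was above the noise limit on 25 of 27 arrays. A dim further probe of MTHFD1, above the noise limit on 1 array, read -0.33. The riser, ALDH1L1, was above the noise limit on 2 of 27 arrays and was named after its value was seen. Of 7 proline, glutamine and cysteine enzymes 2 fell, ALDH18A1, which starts proline synthesis, at -2.62 (adjusted p = 0.000444) and CBS, which makes cystathionine, at -1.08.

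Upstream, 1 of 8 eIF2 kinases and phosphatase subunits passed, PPP1CC, which fell by 2.26 (limma, adjusted p = 0.0235) and lost the call in 6 of 17 alternatives. The kinases EIF2AK2 (0.59) and EIF2AK3 (0.32) did not pass. The probes of EIF2AK1 disagreed, with 0.47 for the brightest, which did not pass, and -1.29 and -0.66 for the other two, which did. Of 7 eIF2 and eIF2B subunits 2 fell, EIF2S1, the subunit that the kinases phosphorylate, at -2.65 (adjusted p = 7.36e-05) and EIF2B3 at -1.50 (adjusted p = 0.00124). The EIF2S1 probe was dim with LPS, at 4.38, and above the noise limit on 23 of 27 arrays.

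The endoplasmic reticulum lists were mixed. Of 12 chaperones and co-chaperones 3 rose and 1 fell, with DNAJB9, a co-chaperone of BiP, at 1.27 (limma, adjusted p = 0.0171) and the lectin chaperone CALR at -1.14 (adjusted p = 0.0135). HSP90B1 passed narrowly, at 0.54, and lost the call in 11 of 17 alternatives. Of 9 disulfide enzymes 2 rose and 2 fell, among them PDIA4 at 1.19, PDIA3 at 0.93 and TXNDC5 at -1.88. PDIA4 lost the call in 6 of 17 alternatives. A further PDIA3 probe read 0.40 and did not pass. HSPA5 rose beside lists in which most genes did not pass, which was also so over all named genes (10803 of 15207).

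Of 13 degradation genes 2 rose and 2 fell, with HERPUD1, a stress-induced scaffold of the degradation complex, at 0.95 (limma, adjusted p = 0.00386) and UFD1, a cofactor of the extracting ATPase, at -1.54 (adjusted p = 0.00119). Of 16 translocation and signal peptidase genes 1 rose and 3 fell, SRPRB at -2.35, SEC63 at -2.18 and SSR3 at -1.08. SSR3 lost the call in 7 of 17 alternatives. The SEC63 probe was above the noise limit on 24 of 27 arrays. Of 7 sensors and processing genes 1 fell, RTCB, the ligase that joins spliced XBP1, at -0.87 (adjusted p = 0.0171). RTCB lost the call in 7 of 17 alternatives. ATF6, the transmembrane sensor, differed by 0.09 and did not pass.

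**Figure D4:**
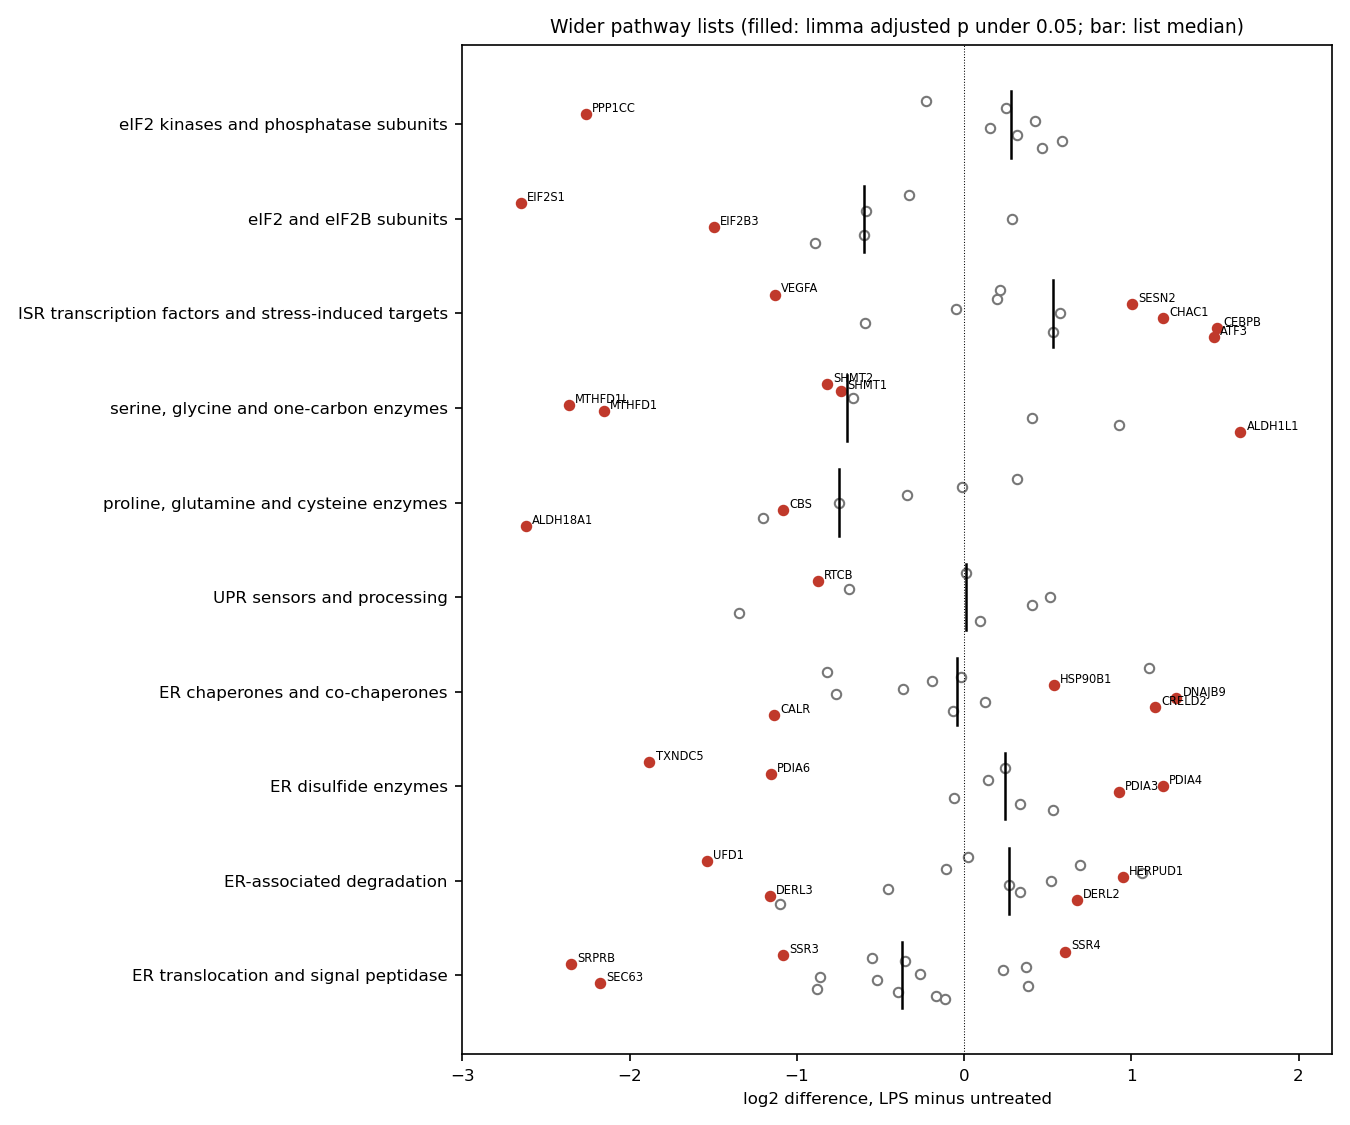
Difference in normalised log2 intensity between LPS and untreated cells (horizontal axis) for the measured genes of the 10 wider lists (vertical axis), with a point for each gene, filled where limma's adjusted p was under 0.05, and a bar for the list median. Calls lower outnumber calls higher in the amino acid and one-carbon enzyme, eIF2 and translocation lists, as over all named genes (2343 against 2061). In the stress response list 4 of the 5 genes called rose.

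Markers of cell types moved with LPS beside these members. Of 8 monocytic markers 4 rose (PTPRC, ITGAM, CSF1R and CD14). The others did not pass: LYZ (-0.65), MPO (-0.24), SPI1 (-0.14) and CD33, which was higher with LPS (12.09) than untreated (11.61). Their summed intensity was 6497 to 8433 in untreated cultures, 86302 to 91713 in LPS cultures and 79984 to 88349 in PBD150 plus LPS cultures. Such a sum is carried by its brightest probes, here CD14, which was at the top of the scale (at least 99% of the array's maximum) on 9 of 9 LPS arrays and 8 of 9 PBD150 plus LPS arrays. Without CD14 the sums were 6113 to 7946, 20479 to 26994 and 15190 to 24659.

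Of 4 T or NK lymphocyte markers 2 rose with LPS (CD2 and NKG7), with sums, in the same order of groups, of 11949 to 16544, 38759 to 44255 and 29842 to 37816, and CD3E was above the noise limit on 15 of 27 arrays. Of 2 B lymphocyte markers MS4A1 rose by 1.14 log2 and CD79A fell by 1.40, with sums of 701 to 992, 508 to 715 and 383 to 522. Of 2 epithelial markers EPCAM rose by 2.36, with sums of 24.6 to 57.2, 144 to 191 and 153 to 184. Of 3 fibroblast markers DCN rose by 1.69, with sums of 283 to 436, 513 to 782 and 621 to 728. The part of these shifts in the members' differences was not tested.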

How the data were processed

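Spot intensity per probe and array was taken from the authors' deposited table, on a linear scale with some values below 0. The labels name a 1-colour Phalanx Human OneArray, and for the scanner, background correction and scaling the sources used here give nothing. Values under 1 were set to 1 (4.35% to 7.59% per array), the log2 was taken, the 27 arrays were quantile normalised, and the 3 technical arrays of a culture were averaged. The 9 cultures were fitted with 1 mean per group in limma 3.58.1 (R 4.3.3), 2-sided, and Benjamini-Hochberg adjustment over 30968 probes at 0.05. The fit was tested on simulated data.

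The platform's probe table gave 1 symbol for 17397 probes, several for 0 and none for 13571. Older symbols were replaced through RefSeq names (GRCh38.p14), where 82 found no match. All members were named, with up to 4 genes of each list by smallest p in LPS against untreated, and other genes after their values were seen. The members and lists were chosen with earlier results of these data known. The 17 alternatives were values as deposited, median centring, a pseudocount of 16, dim probes left out, a replicate block, all 27 arrays with a random block, only the 2 groups compared, array weights, and each of 9 cultures left out. The number of cultures, 3 in each group, limits the precision.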

Additional observations from a re-analysis of the deposited data

How the results depend on the processing

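Of the members' results over 17 alternatives, 153 of 170 kept direction and side of the threshold in LPS against untreated, 161 of 170 in PBD150 plus LPS against LPS, and 155 of 170 in PBD150 plus LPS against untreated. In LPS against untreated the members called lower numbered 2 in the values as deposited and 2 to 5 when each culture was left out (2 without untreated replicate 2). In the values as deposited the median of all probes was 0.41, against 0.08 after quantile normalisation, and 5935 probes were higher and 2205 lower, against 3292 and 3664. In PBD150 plus LPS against untreated the members called lower numbered 5 with median centring, a pseudocount of 16, all 27 arrays, only the 2 groups compared or array weights, against 3, and 3 to 5 when each culture was left out. ATF4 there turned to 0.0077 in the values as deposited. In PBD150 plus LPS against LPS, DDIT3 turned to -0.18 in the values as deposited and -0.025 with median centring. With each culture left out it ranged from -0.0099 to 0.16, TRIB3 from -0.44 to 0.19, PHGDH from -0.30 to 0.075 and XBP1 from -0.082 to 0.41. The cause was not tested. A pseudocount of 16 called TRIB3 lower with LPS (6 members lower). All 27 arrays with a random block called TRIB3 and ATF4 lower (7 members, limma, adjusted p = 0.000799 and 0.0452). In PBD150 plus LPS against LPS the random-block fit called 1 probe higher and 13 lower, none of them a member. It uses 1 correlation for all probes, 0.239, so its p-values are too small where a culture's arrays agree more closely, as for TRIB3 and ATF4 with LPS. Array weights called 5458 probes higher and 5552 lower with LPS. No sign was seen that culture numbers pair the samples. Correlations of same-numbered cultures, as deviations from their group means, ran from -0.219 to 0.036, and 1 of 9 correlated best with its own number. With 3 cultures in a group, low correlations cannot show that the samples were unpaired. With the replicate block, LPS against untreated had 3 members higher and 4 lower, with XBP1 no longer past (adjusted p = 0.0602), and PBD150 plus LPS against untreated 3 and 3. The wider lists had 6 to 22 genes higher and 10 to 32 lower with LPS over the alternatives, which were run on them after the data were seen. Dim signal limits ERN1 most.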
